A study of Mus musculus with 2 samples.

Results

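The cells described here are CD8 T cells of infarcted mouse hearts that held transcripts of Ccl5, Gzmk or Nkg7 and none of Pdcd1 or Tigit. The starting point was every barcode with 300 or more genes, 500 or more UMIs (unique molecular identifiers, the tags that mark single captured RNA molecules) and no more than 10% of UMIs from mitochondrial genes. From these a cell was taken when it had at least 1 UMI of Cd8a or Cd8b1, at least 1 of Cd3d, Cd3e or Cd3g, 0 UMIs of Cd4, Foxp3, Pdcd1 and Tigit, and at least 2 UMIs of Ccl5, Gzmk and Nkg7 together. The rule found 517 cells in the anti-PD1 library and 445 cells in the anti-IgG library, 962 of the 10406 barcodes in all. They are called the Pdcd1-/Tigit- CD8 cells below, which means only that no UMI of either gene was seen in them.

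Cells were prepared from hearts of mice labelled WT, 7 days after myocardial infarction, in which a blocked coronary artery kills heart muscle. The anti-PD1 mice were injected with an antibody against PD1, and the anti-IgG mice with the comparison antibody. Each group is 1 library, so differences between them could not be checked against replicates and carry no p-value, and the number of hearts behind a library, their age and the antibody doses are not given in the sources used here. The design text calls the cells sorted T cells, whereas the protocols in the labels go through digestion, lysis of red cells and removal of dead cells and name no sort.

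CD8 T cells recognise peptides on MHC class I and can kill the cell that shows them, by releasing perforin and granzymes or through death ligands such as Fasl. Naive CD8 cells circulate through lymph nodes with the homing receptor CCR7 and the transcription factors Lef1 and Tcf7, and after activation they gain granzymes, chemokines and tissue receptors. PD1 (Pdcd1) and Tigit are inhibitory receptors that appear on activated and on exhausted cells, while memory-like CD8 cells can hold effector transcripts without them.

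The anti-PD1 library held 29046341 UMIs in 6026 barcodes and the anti-IgG library 22806806 UMIs in 4380 barcodes, of which 5835 and 4309 were kept. The Pdcd1-/Tigit- CD8 cells summed to 2578116 UMIs in the anti-PD1 library, with medians of 4399 UMIs and 1681 genes per cell, and to 2478926 UMIs in the anti-IgG library, with medians of 4918 UMIs and 1802 genes. Mitochondrial genes took 1.97% of their UMIs in both libraries, and ribosomal RNA genes 7.46% in the anti-PD1 and 5.73% in the anti-IgG library. The libraries shared 47 barcode sequences, and 0 of these belonged to a Pdcd1-/Tigit- CD8 cell in both. A level is a gene's UMIs per 10000 UMIs, with both added up over all cells of a kind in 1 library, and all intervals are 95% intervals that cover counting error only and are too narrow where the UMIs of a gene lie in few cells.

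Their share of the library depended on the depth per cell, since the rule asks for UMIs of some genes and for 0 UMIs of others. They made up 8.86% of kept cells (Clopper-Pearson interval 8.14 to 9.62) in the anti-PD1 library and 10.3% (9.43 to 11.3) in the anti-IgG library. Among all CD8 cells without Cd4 and Foxp3 UMIs, 1355 in the anti-PD1 and 923 in the anti-IgG library, they were 38.2% (35.6 to 40.8) in the anti-PD1 library and 48.2% (44.9 to 51.5) in the anti-IgG library. With every cell cut at random to 1000 UMIs before the rule, leaving out the 96 anti-PD1 and 82 anti-IgG kept cells with fewer, these shares of CD8 cells were 44.8% (41.7 to 48.0) in the anti-PD1 and 42.0% (38.4 to 45.7) in the anti-IgG library. The order of the libraries was thus not the same at equal depth, and these intervals overlap. Of the CD8 cells with Ccl5, Gzmk and Nkg7 UMIs, 1060 in the anti-PD1 and 686 in the anti-IgG library, 48.8% (45.7 to 51.8) lacked Pdcd1 and Tigit in the anti-PD1 library and 64.9% (61.2 to 68.4) in the anti-IgG library, against 74.3% (70.6 to 77.8) and 80.5% (76.2 to 84.3) at 1000 UMIs. In both libraries 1000 UMIs per cell thus missed Pdcd1 or Tigit in many cells. The anti-IgG share was the higher both ways, but at 1000 UMIs the intervals overlap.

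**Figure D1:**
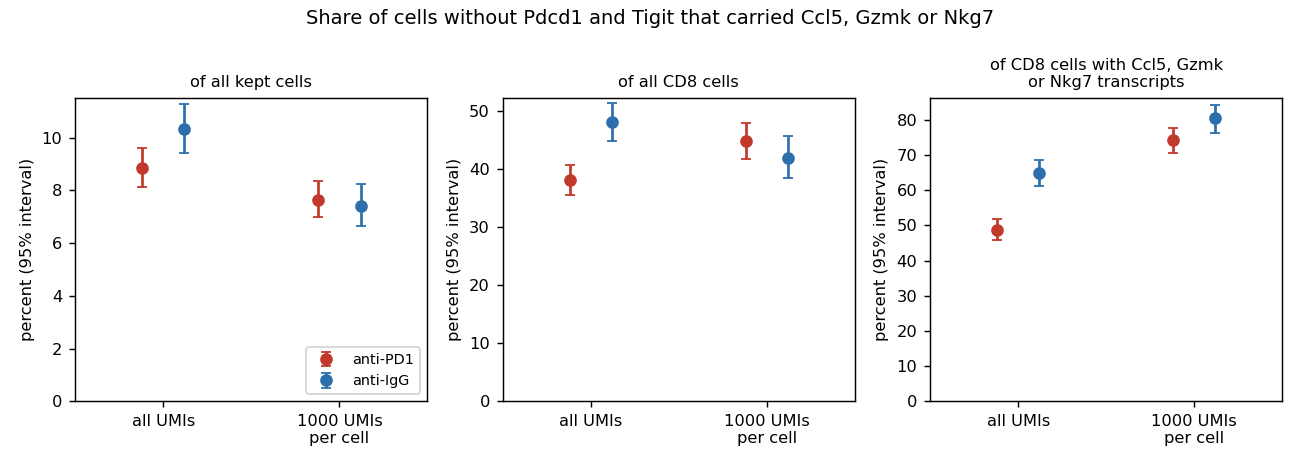
Pdcd1-/Tigit- CD8 cells as a percent (y axis) of kept cells, of all CD8 cells and of CD8 cells with Ccl5, Gzmk or Nkg7, with all UMIs and with each cell thinned to 1000 UMIs, in the anti-PD1 and the anti-IgG library. Points are shares on a y axis that starts at 0, and error bars are Clopper-Pearson 95% intervals. Of all CD8 cells, the anti-PD1 share is the lower with all UMIs (38.2% against 48.2%), while the thinned shares of 44.8% and 42.0% have overlapping intervals.

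Of the 3 genes that chose the cells, the one seen in most was Nkg7, which encodes a membrane protein of cytotoxic granules. Nkg7 was seen in 98.3% of the cells in the anti-PD1 library and 98.4% in the anti-IgG library, at 14.9 and 14.1 UMIs per 10000. Ccl5, a chemokine that effector and memory CD8 cells secrete, was in 52.6% of anti-PD1 and 56.0% of anti-IgG cells, at 42.7 and 36.9 UMIs per 10000. Gzmk, granzyme K, was in 23.0% and 22.5% of the cells of the anti-PD1 and the anti-IgG library. B cells, which should lack these genes, had a UMI of Nkg7 in 0.694% of 144 anti-PD1 cells and 0% of 61 anti-IgG cells, and one of Ccl5 in 0% and 3.28%, at median depths of 2436.5 and 2951 UMIs. Nkg7 was the only one of the 3 genes seen in 46.8% of the cells (242) in the anti-PD1 library and 43.8% (195) in the anti-IgG library. Just inside the threshold, the 82 anti-PD1 and 61 anti-IgG cells with exactly 2 UMIs of the 3 genes had 17.8 and 9.05 Ccr7 UMIs per 10000 and 0 Gzma UMIs in both libraries. Just outside it, the 91 anti-PD1 and 81 anti-IgG cells with exactly 1 UMI had 17.8 and 12.8 Ccr7 UMIs per 10000.

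The name effector is only partly borne out by the transcripts. The 5 given markers (Cd8a, Ccl5, Gzmk, Gzma, Nkg7) summed to 71.4 UMIs per 10000 in the anti-PD1 library and 60.6 in the anti-IgG library. The rule itself used 4 of these 5 genes, so their sum supports no name. The naive markers, among them Ccr7, Lef1 and Dapl1, were present too, at a summed 17.5 UMIs per 10000 in the anti-PD1 and 14.6 in the anti-IgG library, between the 33.2 and 25.9 of naive CD8 cells and the 7.15 and 5.73 of CD8 cells with Pdcd1 or Tigit. In the anti-PD1 library 313 cells (60.5%) and in the anti-IgG library 265 cells (59.6%) had a UMI of Ccr7. Among markers of other cells, all 7 gamma-delta T cell markers were seen and summed to 0.260 UMIs per 10000 in the anti-PD1 and 0.311 in the anti-IgG library, and the NK and NKT markers to 0.888 and 0.916. Myeloid markers summed to 4.96 UMIs per 10000 and were in 8.51% of the cells in the anti-PD1 library, against 4.77 and 5.17% in the anti-IgG library. B cell markers were in 42.4% of anti-PD1 and 55.7% of anti-IgG cells, at 1.76 and 2.34 UMIs per 10000. Plasmacytoid dendritic markers were in 49.7% and 55.5%, at 2.14 and 2.38. Most of the latter were Bst2, with 494 of 552 UMIs in the anti-PD1 and 449 of 589 in the anti-IgG library. Ccr9 had 49 and 116. Bst2 is also in the interferon list and Ccr9 in the naive list used below, so their UMIs alone cannot tell dendritic cells from T cells. In the anti-IgG library the highest cell held 43 Bst2 UMIs, and the highest for Ccr9 held 17. Which cells these UMIs came from was not tested. The list for possible doublets did not use these 2 genes. Endothelial markers were in 18.0% and 22.9% of the cells, at 0.508 and 1.65 UMIs per 10000. Fibroblast markers had 4 UMIs in 4 anti-PD1 cells, and all their 302 UMIs in the anti-IgG library lay in 1 cell. The part of these transcripts in the comparisons is given only by the alternatives that leave such cells out.

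The set ran from naive-like to killer-cell transcripts when split, after the values were seen, by which rule gene a cell carried: 119 anti-PD1 and 100 anti-IgG cells with Gzmk, 156 and 150 with Ccl5 but no Gzmk, and 242 and 195 with Nkg7 alone. Their median depths, in the same order of kinds, were 3934, 4064 and 4831 UMIs in the anti-PD1 and 4821, 5285 and 4714 in the anti-IgG library. Ccr7 was in 12.6%, 43.6% and 95.04% of these kinds in the anti-PD1 library, and in 20%, 44.7% and 91.3% in the anti-IgG library. Gzmb, granzyme B, which triggers death of the target cell, ran the other way, at 47.9%, 20.5% and 1.7% of anti-PD1 cells and 42.0%, 11.3% and 1.0% of anti-IgG cells. The death ligand Fasl was in 61.3%, 36.5% and 2.9% of anti-PD1 cells and 57.0%, 26.7% and 1.0% of anti-IgG cells. The Nkg7-only cells thus carried the homing receptor of naive cells in more than 90% of cells and Gzmb and Fasl in under 3%, in both libraries. Prf1, perforin, was in 25.2%, 22.4% and 9.92% of the anti-PD1 kinds and 32%, 18.7% and 14.9% of the anti-IgG kinds. Ly6c2, a surface antigen that rises on memory CD8 cells, was common in every kind, at 86.6%, 70.5% and 45.0% in the anti-PD1 and 84.0%, 76.0% and 44.6% in the anti-IgG library. B cells had a UMI of Gzmb in 0% of cells in both libraries and of Ly6c2 in 5.56% of anti-PD1 and 13.1% of anti-IgG cells, while Ccr7, which B cells express, was in 77.1% and 49.2%.

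**Figure D2:**
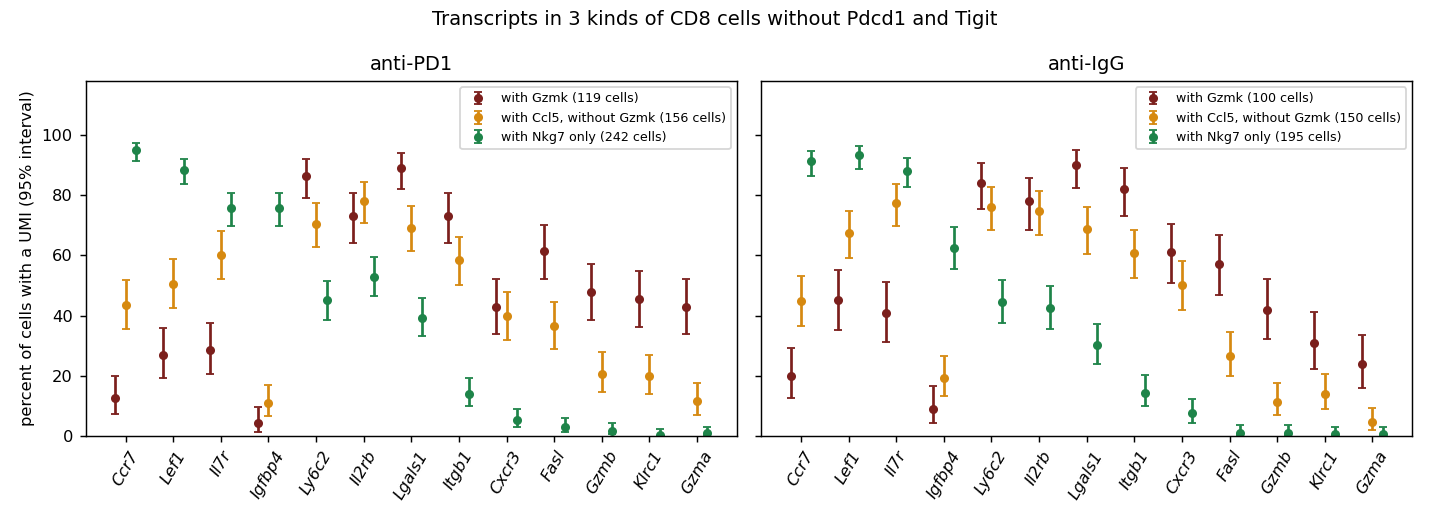
Percent of cells with a UMI (y axis) for 13 genes in Pdcd1-/Tigit- CD8 cells with Gzmk, with Ccl5 but no Gzmk, and with Nkg7 alone, in 1 panel per library; points are shares and bars Clopper-Pearson 95% intervals. Ccr7 goes up to 95.04% in Nkg7-only cells of the anti-PD1 library, while Gzmb goes down to 1.7% there.

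Split by Ccr7 instead, the same opposition was seen. The 204 anti-PD1 and 180 anti-IgG cells without a Ccr7 UMI, at medians of 3665.5 and 4404 UMIs, were set over the 313 and 265 cells with one, at medians of 4975 and 5112. Gzmb was at ratios of 39.9 (27.1 to 61.1) in the anti-PD1 and 12.5 (8.84 to 18.2) in the anti-IgG library. Klrg1, an inhibitory lectin of terminal effector cells, had 79 UMIs against 1 and 54 against 3, and Ifng, the cytokine interferon gamma, was at 13.4 and 4.29. Lef1, which was not used in the split, was at 0.196 in the anti-PD1 and 0.347 in the anti-IgG library, and Klrd1, the CD94 chain of NK receptors, at 1.66 and 1.36.

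Naive CD8 cells were the first comparison, 149 in the anti-PD1 and 138 in the anti-IgG library, chosen by the same CD8, CD3, Cd4, Foxp3, Pdcd1 and Tigit conditions with 0 UMIs of Ccl5, Gzmk and Nkg7 and at least 2 UMIs of naive markers that include Ccr7, Lef1 and Dapl1. As effector genes chose both sides, the ratios are a description. The Pdcd1-/Tigit- cells held granzymes, killer-cell lectins, interferon gamma, Tbx21 and tissue receptors that naive cells lacked or nearly lacked, and less of few genes. In both libraries 327 of 8200 genes (3.99%) had a ratio of 2 or more, and 44 (0.537%) a ratio of 1/2 or less.

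Gzma, granzyme A, had 1623 UMIs in the anti-PD1 Pdcd1-/Tigit- cells against 0 in naive cells, and 437 against 0 in the anti-IgG library. With the naive group set to a floor of 3 UMIs this was 109-fold and 30.0-fold higher, with lower interval limits of 88.9 and 24.3. Gzmb had 526 against 0 and 326 against 0, at the same floor 35.5-fold and 22.4-fold higher, with lower limits of 28.7 and 18.1. Both granzymes were thus not detectable in naive cells at this depth. Tbx21, the T-bet transcription factor of effector cells, had 171 UMIs against 1 in the anti-PD1 and 143 against 3 in the anti-IgG library. Klrk1, the activating receptor NKG2D, had 190 against 0 and 174 against 1. Mki67, a protein of dividing cells, had 254 against 1 and 204 against 0, and Ifng 166 against 1 and 124 against 0. The Mki67 UMIs lay in only 35 anti-PD1 and 34 anti-IgG Pdcd1-/Tigit- cells, and the 5 highest cells held 45.3% and 66.2% of them. Tbx21, Klrk1, Mki67 and Ifng did not pass 3 UMIs in either set of naive cells. Xcl1, a chemokine that attracts cross-presenting dendritic cells, had 173 UMIs against 1 and 122 against 0. Il18rap, a chain of the IL-18 receptor, had 85 against 1 in the anti-PD1 and 75 against 1 in the anti-IgG library. The receptor Cd160 was at ratios of 15.5 (4.21 to 128.9) in the anti-PD1 and 17.1 (4.66 to 142.4) in the anti-IgG library, and the chemokine receptor Cxcr3 at 21.6 (5.92 to 179.8) and 8.63 (4.33 to 20.2). The calcium-binding protein S100a6 was at 30.2 (14.6 to 75.3) and 11.8 (7.53 to 19.7), and the protease inhibitor Ctla2a at 15.1 (6.41 to 46.7) and 17.6 (6.80 to 64.8). These are the 12 genes with the highest ratios.

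Genes of memory-like CD8 cells stood out as a list: 14 of 19 measured genes had a ratio of 2 or more in both libraries, against 3.87% of all 10136 genes with at least 20 UMIs, and the median log2 ratio was 2.61. Il2rb, the receptor chain for IL-2 and IL-15, was at 3.24 UMIs per 10000 in Pdcd1-/Tigit- cells against 1.13 in naive cells of the anti-PD1 library, a ratio of 2.87 (2.20 to 3.80), and at 3.20 against 0.568 in the anti-IgG library, a ratio of 5.64 (3.90 to 8.48). Ly6c2 was at 12.2 against 0.614 in the anti-PD1 and 11.97 against 1.55 in the anti-IgG library. The levels of both genes in the Pdcd1-/Tigit- cells were nearly the same in the 2 libraries. Cxcr6, a chemokine receptor of tissue-resident T cells, was at ratios of 9.44 (4.28 to 25.9) and 7.44 (4.11 to 15.02). Granule and death-ligand genes counted 9 of 12 at 2 or more (median log2 2.37), effector transcription factors 6 of 13 (1.34), homing genes 8 of 17 (1.28), cell cycle genes 13 of 18 (1.61), secreted factors 4 of 11 (1.34), and NK receptors and adaptors 5 of 15 (1.10). Prf1, perforin, was at ratios of only 1.55 (0.902 to 2.86) in the anti-PD1 and 1.82 (1.02 to 3.53) in the anti-IgG library, and Klrd1 at 1.20 (0.953 to 1.53) and 0.960 (0.772 to 1.20).

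Naive genes were lower in the Pdcd1-/Tigit- cells, but by less than these genes were higher. Of 14 naive-list genes that the rule did not use, 13 had a mean ratio below 1, with a median log2 ratio of -0.69, and 1 was at 1/2 or less in both libraries, against 0.977% of all genes. Tcf7 was at 4.66 UMIs per 10000 against 6.62 in naive cells of the anti-PD1 library and at 5.35 against 8.48 in the anti-IgG library, ratios of 0.704 (0.624 to 0.796) and 0.632 (0.566 to 0.706). Klf2, which keeps T cells in circulation, was at 13.7 against 26.3 in the anti-PD1 and 13.4 against 23.3 in the anti-IgG library. The lowest ratios belonged to Slc6a19, an amino acid transporter, at 0.202 in the anti-PD1 and 0.198 in the anti-IgG library, and to Ly6d at 0.202 and 0.279, Ldhb, a lactate dehydrogenase chain, at 0.225 and 0.326, and Cd40lg, the CD40 ligand, at 0.202 and 0.453. The other 8 of the 12 lowest were Gm37065, Tubb2a, Ecm1, Slc28a2b, Tcf4, Aldh2, Patj and Bambi-ps1, several of them on few UMIs, such as Tcf4 with 9 UMIs against 4 in the anti-PD1 and 23 against 21 in the anti-IgG library. The lists of early response genes (1 of 28 at 2 or more, 1 at 1/2 or less, median log2 -0.19), heat shock (0 of 11 either way, 0.09) and coreceptor and receptor complex (0 of 7, -0.03) held nearly no gene past the fold. Interferon response genes counted 7 of 30 at 2 or more (0.58), among them Isg20, an exonuclease, at 6.07 (2.73 to 16.8) and 7.18 (3.24 to 19.8). Naive anti-IgG cells held 6.97 UMIs per 10000 of Lyz2, a macrophage lysozyme, against 0.0192 in naive anti-PD1 cells, and the part of this in the ratios was not tested.

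CD8 cells with Ccl5, Gzmk and Nkg7 UMIs that also had a UMI of Pdcd1 or Tigit were the most similar cells, 543 in the anti-PD1 and 241 in the anti-IgG library. They were deeper, at medians of 5563 and 5526 UMIs per cell, which makes a Pdcd1 or Tigit UMI likelier, and the closing section gives the counts at equal depth. Just outside the rule, the 183 anti-PD1 and 102 anti-IgG cells with exactly 1 UMI of Pdcd1 and Tigit had 4.80 and 3.17 Ccr7 and 4.42 and 2.79 Gzma UMIs per 10000. Against them the Pdcd1-/Tigit- cells held more of the naive genes and less of the inhibitory receptors, the NK receptors and the cell cycle genes. In both libraries 144 of 9516 genes (1.51%) had a ratio of 1.5 or more and 502 (5.28%) a ratio of 1/1.5 or less.

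Of the naive list, 11 of 18 genes were at 1.5 or more in both libraries, against 2.35% of 11270 genes, and all 18 had a mean ratio above 1, with a median log2 ratio of 0.93. Ccr7 was at 8.77 UMIs per 10000 in Pdcd1-/Tigit- cells against 3.64 in cells with Pdcd1 or Tigit of the anti-PD1 library, and at 4.31 against 1.81 in the anti-IgG library, ratios of 2.41 (2.25 to 2.58) and 2.38 (2.09 to 2.71). Lef1 was at ratios of 2.25 and 2.43, and Dapl1 at 3.59 and 2.88. These are large ratios beside a median of all genes of -0.09 on the log2 scale. Igfbp4, which encodes a secreted protein that binds insulin-like growth factors, was at 5.83 against 1.03 in the anti-PD1 and 3.23 against 1.01 in the anti-IgG library, ratios of 5.68 (5.07 to 6.37) and 3.19 (2.70 to 3.79), among the 8 highest of all genes. Trnp1 (5.09 and 6.83), the corepressor Tle1 (2.37 and 10.6), Gm43698 (4.81 and 9.22), Gm26771 (6.23 and 2.62) and BC106179 (2.42 and 5.01) were also among the 8, but BC106179 was at 0.569, as the geometric mean of both libraries, with cells thinned to 1000 UMIs. The other two were the matrix genes Dcn and Bgn, and nearly all their UMIs came from 1 anti-IgG cell: 147 UMIs of Dcn in 1 cell, and 94.5% of the 109 of Bgn.

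Of the other inhibitory receptors and exhaustion genes, none of which the rule used, 10 of 14 were at 1/1.5 or less in both libraries, against 6.65% of all genes, with a median log2 ratio of -1.13. Lag3, a checkpoint receptor that binds MHC class II, was at 0.0427 UMIs per 10000 against 0.185 in the anti-PD1 and 0.0968 against 0.242 in the anti-IgG library, ratios of 0.230 (0.110 to 0.439) and 0.400 (0.231 to 0.677). Ctla4, which competes with CD28 for its ligands, was at ratios of 0.426 (0.348 to 0.518) and 0.453 (0.328 to 0.623), the costimulatory receptor Tnfrsf9 at 0.122 (0.0698 to 0.201) and 0.293 (0.0922 to 0.811), Havcr2 (TIM-3) at 0.212 (0.0809 to 0.472) and 0.171 (0.0415 to 0.529), and Tox, a factor of exhausted cells, at 0.540 (0.426 to 0.681) and 0.604 (0.456 to 0.798). In both libraries the intervals of these 5 genes lay below 1. Set against naive cells, by contrast, Ctla4 was at ratios of 1.03 (0.676 to 1.64) and 0.863 (0.495 to 1.60) and Tox at 0.711 (0.467 to 1.11) and 1.20 (0.713 to 2.14). The intervals there contain 1, so for Ctla4 and Tox no difference from naive cells was detectable at this depth. The list was not at the naive level throughout. Of its 11 measured genes, 7 had a mean ratio above 1 over naive cells, with a median log2 ratio of 0.28. Among them 2 were at 2 or more in both libraries, against 3.87% of all genes, and Cd160 was at 15.5 and 17.1.

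The lowest ratios to cells with Pdcd1 or Tigit included genes of IL-17 producing and gamma-delta T cells: Il17a had 1 UMI against 176 in the anti-PD1 and 2 against 18 in the anti-IgG library, Scart1, a scavenger receptor of gamma-delta T cells, had 20 UMIs against 286 and 6 against 106, and the kinase Blk was at ratios of 0.0668 and 0.0341. Ltb4r1, a leukotriene receptor, had 1 UMI against 46 in the anti-PD1 and 0 against 23 in the anti-IgG library, Nrgn 1 against 37 and 0 against 17, Ifitm1 2 against 35 and 9 against 40, and Spp1, osteopontin, 6 against 13 and 0 against 201. Ifitm1 turned to 1.37 when possible doublets were left out. None of these genes was common in the Pdcd1-/Tigit- cells. NK receptors and adaptors counted 8 of 18 at 1/1.5 or less (median log2 -0.79), cell cycle genes 10 of 18 (-0.77), memory genes 8 of 19 (-0.62), homing genes 8 of 17 with 1 at 1.5 or more (-0.44), secreted factors 3 of 12 (-0.68), effector transcription factors 2 of 13 (-0.52), metabolic genes 4 of 17 with 1 at 1.5 or more (-0.31), interferon response genes 3 of 30 (-0.41) and early response genes 4 of 29 (-0.15). Xcl1 was at 0.336 (0.283 to 0.397) and 0.347 (0.277 to 0.433). Of the granule genes, 3 of 12 were at 1/1.5 or less (-0.39), while Prf1 was at 1.01 (0.789 to 1.29) and 0.793 (0.601 to 1.05) and Ctsw, a cathepsin of cytotoxic cells, at 0.846 and 0.700. Perforin thus could not be told from the level in cells with Pdcd1 or Tigit. S1pr5, an egress receptor of cytotoxic lymphocytes, was at 2.20 (1.28 to 3.84) in the anti-PD1 and 1.80 (0.953 to 3.61) in the anti-IgG library, while Cx3cr1, the fractalkine receptor, was at 2.09 (1.44 to 3.07) and 0.992 (0.659 to 1.51).

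**Figure D3:**
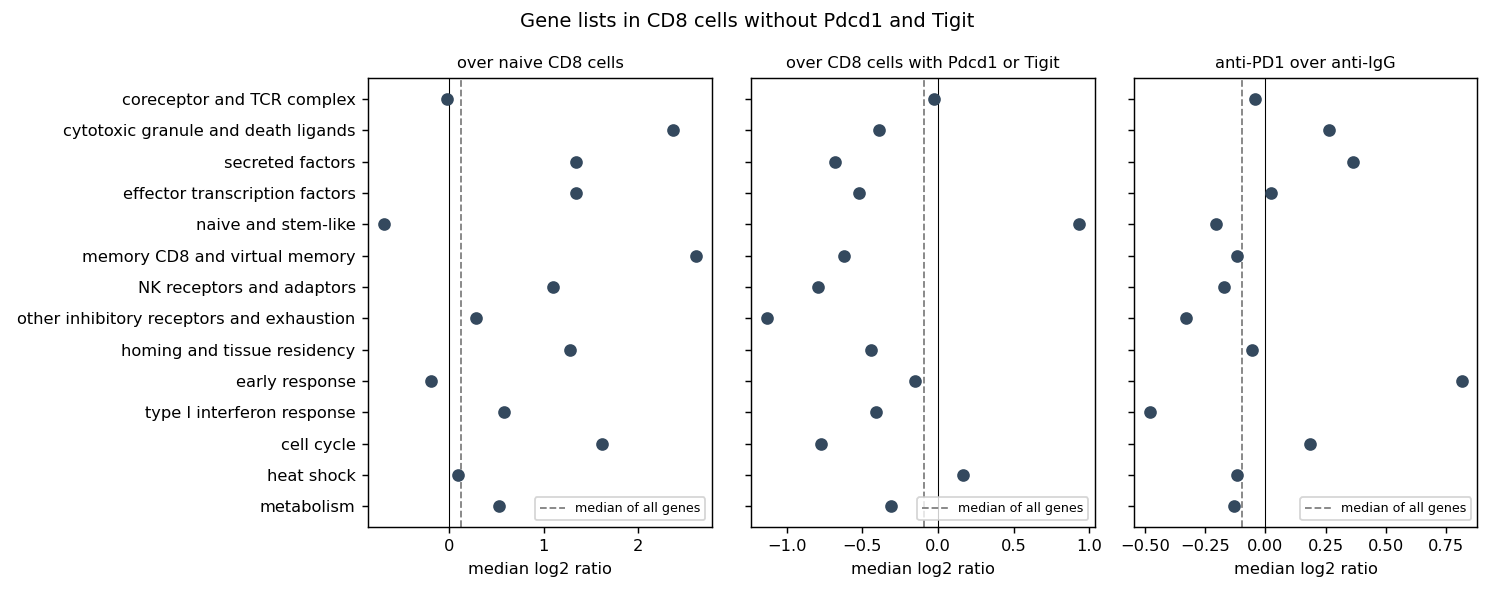
Median log2 ratio (x axis) of 14 gene lists in 3 panels: Pdcd1-/Tigit- CD8 cells over naive CD8 cells, over CD8 cells with Pdcd1 or Tigit, and anti-PD1 over anti-IgG within the Pdcd1-/Tigit- cells. Dashed lines are the median over all genes. The memory list stands at 2.61 over naive cells, the naive list at 0.93 over cells with Pdcd1 or Tigit, and the early response list at 0.82 between libraries.

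Between the libraries, the Pdcd1-/Tigit- cells of anti-PD1 hearts held more transcripts of early response genes, among them the Nr4a nuclear receptors, and fewer of interferon-response genes of the Slfn and Ifi200 families. Of 7774 genes, 385 (4.95%) were at a ratio of 1.5 or more and 641 (8.25%) at 1/1.5 or less, around a median log2 ratio of -0.09. Of the early response list 17 of 28 genes were at 1.5 or more and 1 at 1/1.5 or less, against 6.89% and 12.6% of 9801 genes with at least 20 UMIs, with a median log2 ratio of 0.82. Of the interferon list 0 of 30 were at 1.5 or more and 13 at 1/1.5 or less, with a median of -0.48.

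Nr4a1, an orphan nuclear receptor induced within minutes to hours of T cell receptor or cAMP signals, was at 2.89 UMIs per 10000 in the anti-PD1 cells and 0.569 in the anti-IgG cells, a ratio of 5.07 (4.23 to 6.12), and was seen in 46.6% and 16.9% of cells. B cells, which induce it too, had it in 55.6% and 26.2%. Its relative Nr4a3 had 483 UMIs in 196 anti-PD1 cells and 74 in 57 anti-IgG cells, a ratio of 6.28 (4.91 to 8.13), and Nr4a2 was at 2.93 (2.30 to 3.76). All 3 genes of the family were thus higher in the anti-PD1 cells, and many cells carried them. The AP-1 subunit Fosl2 was at 4.76 (3.85 to 5.93), Junb at 1.80 (1.73 to 1.88), the ERK phosphatase Dusp5 at 3.98 (3.44 to 4.62), the cAMP-responsive modulator Crem at 3.74 (2.68 to 5.31) and the repressor Bhlhe40 at 2.91 (2.41 to 3.52). The AP-1 subunit Jun was lower in the anti-PD1 cells, at 4.27 UMIs per 10000 against 6.97 in the anti-IgG cells, a ratio of 0.612 (0.567 to 0.661). With all Pdcd1-/Tigit- cells, Fos was at 0.816 (0.762 to 0.873) and Fosb at 0.850 (0.716 to 1.01), whose interval contains 1. Among cells with Ccr7, Fos was at 0.590 (0.542 to 0.641) and Fosb at 0.564 (0.438 to 0.723). Among cells without Ccr7 both were higher in the anti-PD1 library, at 1.57 (1.39 to 1.78) and 1.39 (1.09 to 1.78). Jun was below 1 in both parts, at 0.550 (0.500 to 0.605) with Ccr7 and 0.745 (0.654 to 0.847) without it.

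The same genes differed between the libraries in cells of other kinds. Nr4a1 was at a ratio of 5.997 (3.91 to 9.56) in naive CD8 cells, 6.25 (5.17 to 7.62) in CD8 cells with Pdcd1 or Tigit and 4.02 (2.91 to 5.67) in B cells. Fosl2 was at 6.503 (4.14 to 10.7) in naive cells and 4.17 (3.31 to 5.32) in cells with Pdcd1 or Tigit, and Jun at 0.607 (0.526 to 0.699) and 0.568 (0.523 to 0.616). The library ratio of Nr4a1 in Pdcd1-/Tigit- cells divided by that in naive cells was 0.846 (0.534 to 1.34), and that of Nr4a3 1.79 (1.07 to 2.99). The Nr4a1 difference was thus seen in all 4 kinds of cell, B cells included. Within the Pdcd1-/Tigit- cells, Nr4a1 was at a ratio of 13.5 (9.63 to 19.4) among cells without Ccr7 and 2.67 (2.13 to 3.36) among cells with it. Across all genes, 145 of 2757 (5.26%) had a library ratio at least 1.5 times that of naive cells and 164 (5.95%) one at most 1/1.5 of it.

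The 250 bases before the start site of 4 of these genes are printed because their lists differ in which short motifs their promoters hold. Capitals mark TGACG, the core of the cAMP response element (read as CGTCA on the other strand), in Nr4a1 and Nr4a3, and the core of the interferon-stimulated response element, GAAA then any 2 bases then GAAA (read as TTTC, any 2 bases, TTTC on the other strand), in Ifit3 and Slfn5. The sequences are from RefSeq on GRCm38.p6, plus strand, at chr15:101266596-101266845 (Nr4a1), chr4:48045055-48045304 (Nr4a3), chr19:34583279-34583528 (Ifit3) and chr11:82951852-82952101 (Slfn5).
Nr4a1: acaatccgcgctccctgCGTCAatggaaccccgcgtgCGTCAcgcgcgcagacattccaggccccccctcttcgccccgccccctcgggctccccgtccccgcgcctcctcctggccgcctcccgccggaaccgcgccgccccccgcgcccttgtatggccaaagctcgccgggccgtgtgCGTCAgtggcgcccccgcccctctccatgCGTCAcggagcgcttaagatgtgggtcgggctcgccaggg
Nr4a3: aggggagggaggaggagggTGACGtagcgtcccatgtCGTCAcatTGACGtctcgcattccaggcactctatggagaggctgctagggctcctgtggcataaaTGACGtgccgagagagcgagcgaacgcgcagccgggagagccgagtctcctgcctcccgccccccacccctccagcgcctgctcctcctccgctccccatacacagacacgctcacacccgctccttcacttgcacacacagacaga
Ifit3: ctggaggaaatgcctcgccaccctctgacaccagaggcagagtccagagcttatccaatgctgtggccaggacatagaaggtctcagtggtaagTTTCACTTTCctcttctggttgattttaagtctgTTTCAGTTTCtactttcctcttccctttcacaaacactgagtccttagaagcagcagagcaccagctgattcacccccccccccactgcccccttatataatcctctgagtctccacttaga
Slfn5: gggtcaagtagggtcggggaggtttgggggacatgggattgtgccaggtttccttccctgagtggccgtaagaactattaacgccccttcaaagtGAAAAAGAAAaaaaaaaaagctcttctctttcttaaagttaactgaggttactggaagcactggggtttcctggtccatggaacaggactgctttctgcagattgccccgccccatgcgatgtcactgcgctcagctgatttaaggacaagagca

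In promoters of 300 bases, of which 50 lie after the start, TGACG on either strand was in 12 of 23 early response promoters (52.2%), in 4 of 23 interferon-response promoters (17.4%) and in 21.0% of all 27025 promoters. The pair of GAAA runs was in 1 of 23 early response promoters (4.35%), in 15 of 23 interferon-response promoters (65.2%) and in 3.49% of all. Nr4a1 and Nr4a3 each have 4 TGACG matches in the printed bases, Ifit3 has 2 of the interferon motif and Slfn5 has 1, which runs into a stretch of A. The full palindrome TGACGTCA, which contains TGACG, was in 2 of 23 early response promoters (8.70%), 0 interferon-response promoters and 1.88% of all. The AP-1 motif TGANTCA was in 1 early response promoter (4.35%), 8 interferon-response promoters (34.8%) and 7.93% of all. All 4 printed genes hold the motif of their list, but other genes named here do not. Fosl2 had no TGACG and was the 1 early response gene with the pair of GAAA runs. Slfn1, Ifi209 and Ifi203 of the interferon list had no such pair, and Slfn1 had TGACG. Fos had TGACG and was lower in the anti-PD1 cells as a whole. Fosb had TGACG too, and the interval of its ratio contained 1. Motif and direction of the ratio thus did not go together in all genes. A match of letters is a description of the sequence and not a site shown to be bound.

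Slfn5, an interferon-induced gene of the Schlafen family, was at 0.140 UMIs per 10000 in the anti-PD1 cells and 0.549 in the anti-IgG cells, a ratio of 0.255 (0.171 to 0.370). Slfn1, a Schlafen gene linked to T cell quiescence, was at 0.989 and 1.83, a ratio of 0.540 (0.461 to 0.631). Ifi209, of the DNA-sensor family on chromosome 1, was at 0.780 and 1.57, a ratio of 0.498 (0.418 to 0.592), and its neighbour Ifi203 at 0.643 (0.563 to 0.734). Slfn5, Slfn1, Ifi209 and Ifi203 were all lower in the anti-PD1 cells, and 27 of the 30 genes of the list had a ratio below 1. Ifit3, which encodes an antiviral RNA-binding protein, was at 0.357 and 0.557, a ratio of 0.641 (0.487 to 0.841). The fall was not list-wide in every part of the cells. Among cells without Ccr7, several genes of the list were above 1, with Bst2 at 1.43 (1.17 to 1.75) and Irf7 at 1.48 (1.14 to 1.92). Slfn5, Slfn1, Ifi209 and Ifi203 were below 1 there too, at 0.139, 0.748, 0.588 and 0.700. In cells with Pdcd1 or Tigit, Slfn5 was at 0.395 (0.288 to 0.541) and Ifi209 at 0.496 (0.420 to 0.586), and in naive cells Slfn1 was at 0.662 (0.456 to 0.953). Slfn5 was at 0.588 (0.262 to 1.26) in naive cells and 0.332 (0.0714 to 1.31) in B cells, on few UMIs, and both intervals contain 1.

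Genes of quiescence and recirculation were split between the libraries. Txnip, an inhibitor of glucose uptake, was at 3.53 UMIs per 10000 in the anti-PD1 and 6.98 in the anti-IgG cells, a ratio of 0.506 (0.466 to 0.548), and Il7r, the survival receptor for IL-7, at 4.38 and 6.85, a ratio of 0.639 (0.592 to 0.690). Itga4, the integrin alpha chain used to enter tissue, was at 0.609 (0.554 to 0.670). These falls were not particular to the Pdcd1-/Tigit- cells: in cells with Pdcd1 or Tigit, Txnip was at 0.443, Il7r at 0.592 and Itga4 at 0.576. Ccr7 went the other way, at 8.77 and 4.31, a ratio of 2.04 (1.89 to 2.19), and it did so in naive cells (2.18), in cells with Pdcd1 or Tigit (2.01) and in B cells (2.19) as well. Cxcr3 was at 0.614 (0.515 to 0.731) and Cxcr6 at 0.678 (0.580 to 0.792), while Cxcr4, the receptor for CXCL12, was at 1.69 (1.35 to 2.14). Cells with Pdcd1 or Tigit had Cxcr3 at 0.587 and Cxcr6 at 0.548. In cells without Ccr7, Cxcr6 was at 0.999 (0.835 to 1.19) and Cxcr3 at 0.826 (0.669 to 1.02), and in cells with Ccr7 at 0.340 (0.238 to 0.478) and 0.448 (0.319 to 0.622). The naive list as a whole counted 2 of 18 at 1.5 or more and 4 at 1/1.5 or less (median log2 -0.21), the memory list 1 and 4 of 19 (-0.12, but 0.13 with cells thinned to 1000 UMIs), and the homing list 3 and 2 of 17 (-0.06).

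**Figure D4:**
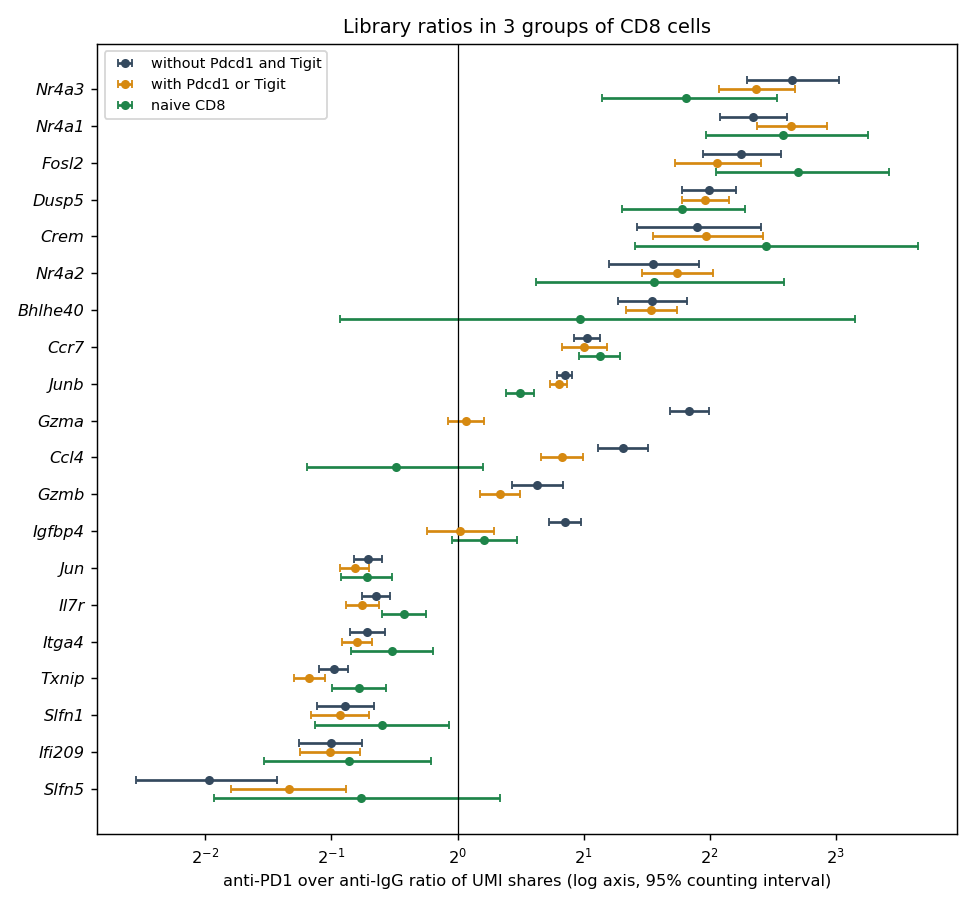
Anti-PD1 over anti-IgG ratio of the level of 20 genes (x axis, log scale) with 95% counting intervals, in Pdcd1-/Tigit- CD8 cells, in CD8 cells with Pdcd1 or Tigit and in naive CD8 cells. Values with under 3 UMIs in a library are not drawn. Nr4a1 lies at 5.07, 6.25 and 5.997 in the 3 kinds of cell, while Gzma lies at 3.57 in the Pdcd1-/Tigit- cells and 1.05 in the cells with Pdcd1 or Tigit.

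Gzma, a granule protease, had a higher level in the anti-PD1 than in the anti-IgG Pdcd1-/Tigit- cells and was in a larger share of them. In the cells with Pdcd1 or Tigit the share differed likewise, while the levels were close. It was at 6.30 UMIs per 10000 in the anti-PD1 and 1.76 in the anti-IgG Pdcd1-/Tigit- cells, a ratio of 3.57 (3.21 to 3.98), and at 3.74 and 3.57 in cells with Pdcd1 or Tigit, a ratio of 1.05 (0.951 to 1.15). The first ratio divided by the second was 3.41 (2.96 to 3.93). Gzma was seen in 71 of 517 anti-PD1 cells (13.7%, 10.9 to 17.0) and 32 of 445 anti-IgG cells (7.19%, 4.97 to 10.0), and at 1000 UMIs per cell in 10.7% and 4.79%. In cells with Pdcd1 or Tigit it was seen in 101 of 543 anti-PD1 cells (18.6%, 15.4 to 22.1) and 25 of 241 anti-IgG cells (10.4%, 6.83 to 14.9). B cells had a UMI of Gzma in 2.08% of anti-PD1 and 1.64% of anti-IgG cells. The UMIs lay in few cells: the 5 highest held 38.9% of them in the anti-PD1 and 51.5% in the anti-IgG library, so the interval of the ratio is too narrow. The median cell with Gzma had 13 UMIs in the anti-PD1 and 7.5 in the anti-IgG library, and 39 anti-PD1 cells (7.54%) and 15 anti-IgG cells (3.37%) had at least 10. Among cells with Pdcd1 or Tigit those medians were 4 and 20 UMIs and those counts 33 (6.08%) and 14 (5.81%). The anti-IgG cells with Pdcd1 or Tigit that held Gzma thus held more of it per cell, in 25 cells of which the 5 highest had 58.8% of the UMIs. Most cells with Gzma also held Gzmb, 49 of 71 in the anti-PD1 and 26 of 32 in the anti-IgG library, and few held Ccr7, 7 of 71 and 2 of 32. The library ratio of Gzma was 4.38 (3.93 to 4.88) in cells without Ccr7 and 4.37 (2.19 to 9.65) in cells with it.

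**Figure D5:**
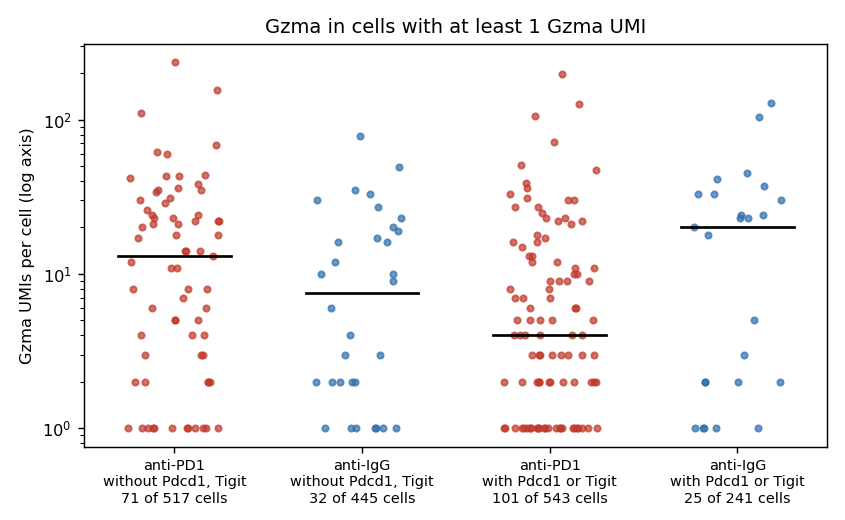
Gzma UMIs per cell (y axis, log scale) in cells with at least 1, for Pdcd1-/Tigit- CD8 cells and CD8 cells with Pdcd1 or Tigit of both libraries; each point is 1 cell and black lines are medians. Of the Pdcd1-/Tigit- cells, 71 anti-PD1 and 32 anti-IgG cells are shown, with medians of 13 and 7.5 UMIs and highest values of 235 and 78.

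Other granule and secreted genes differed less. Gzmb was at 2.04 UMIs per 10000 in the anti-PD1 and 1.32 in the anti-IgG cells, a ratio of 1.55 (1.35 to 1.79), against 1.26 (1.13 to 1.41) in cells with Pdcd1 or Tigit. The ratio differed between the parts split by Ccr7, which were not made up alike in the libraries. Gzmb was at 2.05 (1.77 to 2.37) among cells without Ccr7 and at 0.642 (0.375 to 1.09) among cells with it. Serpinb9, an inhibitor that shields killer cells from granzyme B, was at 2.82 (2.15 to 3.73), and 2.57 (2.14 to 3.12) in cells with Pdcd1 or Tigit. The chemokine Ccl4 was at 2.89 and 1.17 UMIs per 10000, a ratio of 2.48 (2.16 to 2.85), against 1.77 (1.58 to 1.99) in cells with Pdcd1 or Tigit, and Ccl3 at 3.28 (2.28 to 4.81) in only 24 anti-PD1 and 13 anti-IgG cells. The granule list counted 4 of 12 at 1.5 or more and 0 at 1/1.5 or less (median log2 0.27), and the secreted factors 4 and 2 of 11 (0.36). Igfbp4 was at 5.83 and 3.23 UMIs per 10000, a ratio of 1.81 (1.66 to 1.97), while in cells with Pdcd1 or Tigit it was at 1.02 (0.846 to 1.23) and in naive cells at 1.16 (0.968 to 1.38). Within the Pdcd1-/Tigit- cells Igfbp4 was at 0.408 (0.242 to 0.664) among cells without Ccr7 and at 1.73 (1.58 to 1.89) among cells with it, opposite directions. Among the cells without Ccr7 the naive genes Lef1, at 0.488 (0.376 to 0.629), and Tcf7, at 0.694 (0.575 to 0.834), were low too. Klf2 was not, at 1.10 (0.987 to 1.23). Whether Igfbp4 differed there because the libraries held different cells without Ccr7 was not tested. At 1.5 or more and at 1/1.5 or less, the remaining lists counted as follows: effector transcription factors 1 and 1 of 13 (0.02), NK receptors 1 and 4 of 15 (-0.17), inhibitory receptors 2 and 3 of 10 (-0.33), cell cycle genes 3 and 1 of 18 (0.19), heat shock 0 and 1 of 11 (-0.12), metabolic genes 2 and 2 of 16 (-0.13), and coreceptor genes 0 and 0 of 7 (-0.04). Several of these medians changed sign under other settings: with cells thinned to 1000 UMIs the NK receptors were at 0.23 and the inhibitory receptors at 0.30, and in cells without Ccr7 the NK receptors were at 0.25, cell cycle genes at -0.11 and heat shock genes at 0.18.

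Of the 12 highest library ratios, some rested on few cells. Cxcl2, a neutrophil chemokine, had 181 UMIs in 8 anti-PD1 cells and 6 in 2 anti-IgG cells, a ratio of 29.0, and 58.0% of them came from 1 cell. Wfdc17, a macrophage gene, was at 19.95, with 83 UMIs in the anti-PD1 and 4 in the anti-IgG library. Without the 29 anti-PD1 and 16 anti-IgG cells that held at least 2 UMIs of 15 genes of other cell types, Cxcl2 was at 2.97. Besides Nr4a3 and Nr4a1, the others were Sdc4, a syndecan (6.13), the stress factor Atf3 (5.22), Ramp3, a partner of the receptors for CGRP and adrenomedullin (5.17), the tubulin Tubb2a (5.10), Ier5l (4.91), Fosl2, Mex3b (4.38) and Nfil3, a repressor of circadian and immune genes (4.28). Of the anti-PD1 UMIs, 1 cell held 51.3% for Atf3 and 47.1% for Sdc4. The lowest was Sparc, a matrix gene, with 6 UMIs in the anti-PD1 and 125 in 4 anti-IgG cells (0.0462), and 3.96 without those cells. Slfn5, E230001N04Rik (0.275), Crip2 (0.281), Gsn (0.284), Ly6c1 (0.291), Spg20 (0.298), Cd81 (0.313), Lztfl1 (0.329), Myadm (0.341) and Slc14a1 (0.343) were also among the 12 lowest. For Gsn, the actin-severing gelsolin, 75.2% of the anti-IgG UMIs came from 1 cell, and its ratio was between 1.06 and 1.68 under the 4 alternatives that left out cells with innate or other non-T transcripts or those without Ccr7. Ly6c1 was at 1.37 with cells thinned to 1000 UMIs.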

How the data were processed

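Single-cell RNA libraries of mouse heart cells, labelled T cells, were prepared with a 3′ v3 kit per the labels' protocols, though the first bases of the barcodes resemble another kit. The authors deposited UMI counts for each gene in each barcode, not normalized. Cell Ranger 7.1.0 wrote them per the file headers. The submitters' processing notes give mm10, Seurat 4.4.0 and Cell Ranger 7.2.0, and no source used here names the annotation. The cells and gene lists were chosen with earlier results of these data known.

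Kept cells followed the stated rule. UMIs were summed per kind of cell and library and divided by their total. Ratios have 95% intervals, exact given the summed UMIs, and shares have Clopper-Pearson intervals. A gene at 0 UMIs was set to a floor of 3 counts over the group. A ratio of 2 ratios has an interval from Poisson errors on the log scale. Genes entered with at least 50 summed UMIs and lists with at least 20. With 1 library per group no test was made, and cells were not treated as replicates. Naive and Pdcd1 or Tigit cells, and B cells (at least 3 UMIs of Cd79a, Cd79b and Ms4a1 and 0 of Cd3d, Cd3e and Cd3g) as background, were taken by rule too, with no clustering. No doublet caller was run; cells with transcripts of other cell types were left out as alternatives. Thinning drew 1000 UMIs per cell with seed 7.

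Named genes were the 12 highest and 12 lowest ratios between libraries (in at least 10 cells, with an interval excluding 1) and over naive cells, and the 8 highest and 8 lowest over cells with Pdcd1 or Tigit, with the fold of 1.5 or, for naive cells, 2. Mitochondrial, ribosomal, haemoglobin, immunoglobulin, receptor segment, Xist and Y-linked genes were left out of these rankings. Other genes named belong to the lists and were picked after their values were seen. Ratios were tested on simulated data. Promoters came from the RefSeq table and were matched by symbol, 23 of 29 early response and 23 of 30 interferon genes. Python 3.11.15, numpy 2.4.6, scipy 1.17.1, pandas 2.3.3 and matplotlib 3.10.9 were used. Some genes past these rules are not reported here.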

Additional observations from a re-analysis of the deposited data

Results flagged for a closer look

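Some ratios pointed one way in one group and the other way in the other, with both counting intervals clear of 1; with 1 library per group none of these differences was tested. Gzma in Pdcd1-/Tigit- cells over cells with Pdcd1 or Tigit was at 1.68 in the anti-PD1 and 0.493 in the anti-IgG library. For the same pair of cell kinds, Stat4, which relays IL-12 signals, was at 0.803 in the anti-PD1 and 1.20 in the anti-IgG library, and Nt5e, the CD73 ectoenzyme, at 0.681 and 1.43. Sparc was at 0.190 in the anti-PD1 and 1.86 in the anti-IgG library, where 4 Pdcd1-/Tigit- cells held all its 125 UMIs. Between libraries, anti-PD1 over anti-IgG, the ubiquitin-like Isg15 was at 0.760 in Pdcd1-/Tigit- cells and 2.83 in naive CD8 cells, the naive value resting on 26 and 9 UMIs. Fcer1g, a signalling chain of Fc and NK receptors, was at 1.45 in Pdcd1-/Tigit- cells and 0.255 in naive CD8 cells, with 13 UMIs in anti-PD1 and 50 in anti-IgG naive cells. Naive anti-IgG cells also held 6.97 UMIs per 10000 of the macrophage gene Lyz2, against 0.0192 in naive anti-PD1 cells, and its part in the Fcer1g values was not tested.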

How the results depend on the processing

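No paired analysis was possible because each group is 1 library. The cell number, UMI depth and single libraries limit all values, and no replicate could be left out. Of 106 values of shares and counts recomputed under other settings, 78 stayed near the reported value and 28 moved; of 435 list medians 6 changed sign, and of 728 ratios of named genes 10 did. With at least 3 UMIs of Ccl5, Gzmk and Nkg7, the cells were 7.46% of kept anti-PD1 cells, 45.0% of the CD8 cells with those genes there, and 8.91% of kept anti-IgG cells. With the rule applied at 1000 UMIs these shares were 7.65%, 74.3% and 7.40%, and 80.5% of the anti-IgG CD8 cells with those genes. With at least 100 summed UMIs, 234 genes were higher and 343 lower between libraries, 216 higher and 21 lower over naive cells, and 82 higher over cells with Pdcd1 or Tigit; with at least 20, 675, 1239, 99 lower over naive cells and 265. Thinned to 1000 UMIs, 216 were higher and 214 lower between libraries, 146 and 19 over naive cells, 70 and 214 over cells with Pdcd1 or Tigit, and 37 and 37 in the ratio of library ratios to naive cells; Ly6c1 was then at 1.37 and BC106179 at 0.569, and the library medians were 0.13 for memory genes, 0.23 for NK receptors and 0.30 for inhibitory receptors. Fewer genes pass 50 UMIs after thinning and with the higher minimum, by construction. Without ribosomal and mitochondrial genes, 67 genes were lower over naive cells and 221 higher over cells with Pdcd1 or Tigit, and after division by the median ratio 72 were lower over naive cells. Leaving out possible doublets by the list fixed first, which removed 159 anti-PD1 and 172 anti-IgG cells, left 106 genes lower in the ratio of library ratios, with Gsn at 1.68, Bgn at 0.431 and Ifitm1 at 1.37; leaving out cells with innate-like transcripts put Gsn at 1.15. Alternatives chosen after seeing the data were cells with Ccr7 (Gsn 1.06), cells without it (medians of 0.25 for NK receptors, -0.11 for cell cycle and 0.18 for heat shock genes) and leaving out cells with 15 non-T genes (Sparc 3.96, Gsn 1.16, Bgn 0.688). The cause was not tested for these changes of sign, and the Sparc value rests on at most 6 anti-PD1 UMIs. The early response median between libraries was 0.72 and the interferon median -0.44 without the last cells.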
